A study of Homo sapiens with 6 samples.

Results

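The NRF2 antioxidant and detoxification genes are the transcripts through which cells make glutathione and thioredoxin, regenerate NADPH, reduce reactive aldehydes and quinones, conjugate and export foreign compounds, and hold iron safely. In all, 44 genes were taken by symbol from the 25737 entries of the deposited count tables. All 44 symbols were found, each as 1 entry. The list rests on the symbols and not on a cut in the measured values, although it was drawn up with earlier results of these data known.

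The study measured mRNA in A549, a lung carcinoma epithelial line, and in BEAS-2B, an immortalized line of normal bronchial epithelium, after TGF-β1 was applied to model fibrosis of the lung. Each line was left untreated or was exposed for 48 h to TGF-β1 at a dose of 1 or 5 ng/mL, which gives 6 conditions with 1 library each. The genotype of both lines is labelled WT, and the TGF-β1 was given in medium with reduced serum. Whether the untreated cells received the same medium is not stated in the labels, so that serum and TGF-β1 cannot be told apart if they did not.

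NRF2, the product of NFE2L2, is a transcription factor that KEAP1 normally captures in the cytoplasm and sends to the proteasome. When oxidants or electrophiles modify KEAP1, or when KEAP1 is defective, NRF2 accumulates, pairs with a small MAF protein and binds antioxidant response elements in the promoters and enhancers of its target genes. Many lung cancers keep this program switched on, and A549 cells are widely known to carry a defective KEAP1.

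The letters TGACNNNGC, the core of the antioxidant response element, were searched on both strands of the 300 bases around the transcription start sites in the RefSeq promoter table (GRCh38.p14, 250 bases before and 50 after the start). Of the 44 genes, 32 were matched in the table and 12 of them (37.5%) held at least 1 core, beside 16.06% of all 27305 genes in the table. The 12 were CBR1, CYP4F11, EPHX1, GCLM, GPX2, GSTP1, IDH1, KEAP1, ME1, PGD, TXNRD1 and UGT1A6. Not matched were ABCC1, ABCC3, AKR1B10, ALDH3A1, CBR3, CES1, FTH1, GSR, HMOX1, PRDX1, SLC7A11 and TRIM16L. A match describes letters and does not show that NRF2 binds there. Stretches of 60 bases from 5 promoters are given because these genes span the range of responses described further on, from the strongest fall in A549 cells (GPX2) to a higher level with TGF-β1 (GSTP1). They read 5′ to 3′ in the direction of the gene, and the capitals mark the core or its reverse complement.
GPX2 (chr14:64942834-64942893, minus strand): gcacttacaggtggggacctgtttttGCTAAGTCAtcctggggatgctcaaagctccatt
TXNRD1 (chr12:104286904-104286963, plus strand): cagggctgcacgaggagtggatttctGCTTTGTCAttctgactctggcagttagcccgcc
GCLM (chr1:93909431-93909490, minus strand): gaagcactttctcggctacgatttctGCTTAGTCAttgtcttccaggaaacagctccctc
ME1 (chr6:83431155-83431214, minus strand): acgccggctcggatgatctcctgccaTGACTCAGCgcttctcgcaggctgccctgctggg
GSTP1 (chr11:67583720-67583779, plus strand): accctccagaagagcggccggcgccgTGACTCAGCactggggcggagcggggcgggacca
ME1 and GSTP1 hold the same 9 letters, TGACTCAGC, beginning 137 and 66 bases before their start sites. These letters include TGACTCA, which AP-1 factors also bind. GCLM and KEAP1 likewise share 1 core, TGACTAAGC, which lies 34 and 31 bases before the start on the strand opposite to the gene.

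The libraries held between 4120624 and 7841350 counts. Counts were scaled with TMM factors to a common effective size, and the values below are these scaled counts unless raw counts are named. Since 3′ reads were counted, levels are compared between libraries and not between genes. A gene was taken as higher or lower when its fold change (FC) on the scaled count plus 1 was at least 2 and its normalized data (ND) value, log2 of the scaled count plus 1, reached 7 in either library or both. These are the limits of the study, whose ND unit is not stated. A ratio is that of the scaled counts, with the exact 95% Clopper-Pearson interval of the raw counts, which covers counting error only. With 1 library per condition the spread between cultures is unknown, no test was made and no p-value is given. In bulk RNA, fewer cells of a type and less RNA per cell cannot be told apart.

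The response to TGF-β1 was present in both lines. FN1, which encodes the matrix protein fibronectin and is a standard TGF-β1 target, had scaled counts of 6324, 15121 and 18442 in A549 cells and 13351, 199904 and 208711 in BEAS-2B cells at 0, 1 and 5 ng/mL, and rose in both lines at both doses. Keratins KRT8 and KRT18 were counted in every library, while EPCAM had 49, 7 and 2 raw counts in A549 cells and 0 in each BEAS-2B library. The 4 airway basal markers (KRT5, KRT14, TP63 and KRT15) summed to 10, 9 and 8 raw counts in A549 cells and 0, 1 and 0 in BEAS-2B cells. Raw counts of the epithelial cadherin CDH1 were 640, 30 and 8 in A549 cells and 2, 0 and 2 in BEAS-2B cells. The 5 epithelial markers (EPCAM, CDH1, KRT8, KRT18 and KRT19) together made up 0.517%, 0.208% and 0.189% of all counts in A549 cells. In BEAS-2B cells they made up 0.0432%, 0.0201% and 0.0243%. KRT8 and KRT18 carried most of these sums, while KRT19 had 41 raw counts in untreated A549 and 46 in untreated BEAS-2B cells. In A549 cells the sum fell with that of the 44 genes. In BEAS-2B cells it fell more than that of the 44 genes, which went from 0.560% to 0.491% and 0.466%. The part of these markers in the results was not tested. The 8 alveolar type II markers summed to 0.00183%, 0.00355% and 0.00354% of the counts in A549 cells and to at most 0.000705% in BEAS-2B cells. SFTPC, SFTPA1 and SFTPA2 were at 0 in all 6 libraries, while ABCA3, with 72, 255 and 194 raw counts in A549 cells, made up most of that sum. The 8 markers of blood, endothelial and liver cells summed to at most 0.00145% of the counts in any library.

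Untreated A549 cells spent 3.38% of all counts on the 44 genes, and untreated BEAS-2B cells 0.560%. With TGF-β1 the share was 1.58% at 1 ng/mL and 1.31% at 5 ng/mL in A549 cells, and 0.491% and 0.466% in BEAS-2B cells. Without the ferritin chains FTL and FTH1, which are among the most abundant transcripts of the list, the shares were 2.57%, 1.24% and 1.02% in A549 cells and 0.338%, 0.327% and 0.321% in BEAS-2B cells. The treated A549 libraries thus lay between the untreated A549 library and the BEAS-2B libraries. Most of the difference sat in the enzymes that act on quinones, carbonyls and aldehydes, whose share was 1.56%, 0.438% and 0.243% in A549 cells and 0.0360%, 0.0217% and 0.0207% in BEAS-2B cells. The summed shares of the glutathione genes and of the thioredoxin system were 0.207%, 0.254% and 0.222% and 0.248%, 0.191% and 0.233% in A549 cells. GSTP1 and PRDX1 carried most of these sums in the treated libraries, and without them the shares were 0.0862%, 0.0208% and 0.0192% and 0.134%, 0.0258% and 0.0234%. At 5 ng/mL 4 of the 6 glutathione genes that reached the minimum fell in A549 cells, as did 3 of the 4 thioredoxin genes. Of all entries 17.1% fell. GPX2, a glutathione gene, passed the minimum through the control alone and could only be lower.

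**Figure D1:**
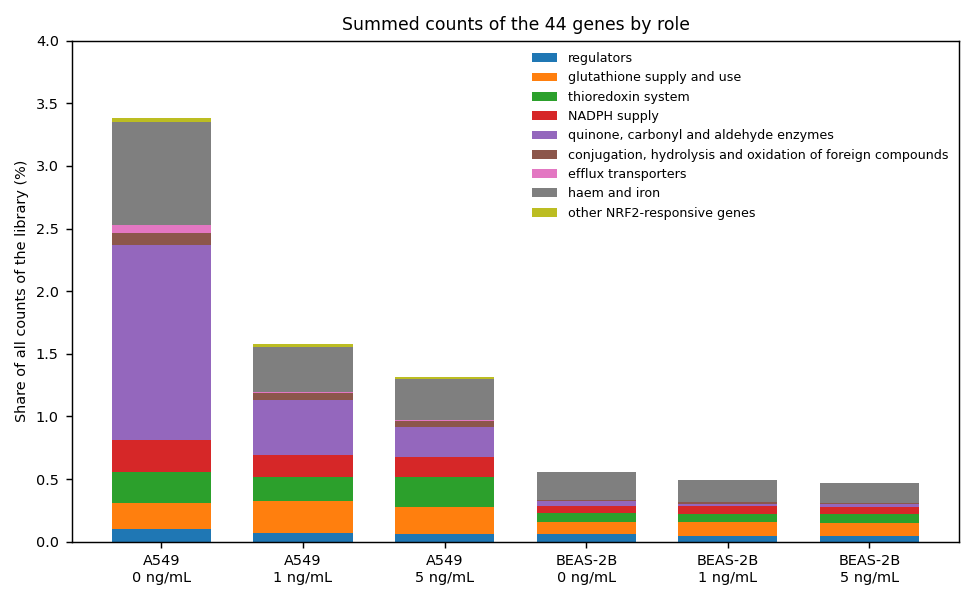
Summed counts of the 44 genes as a percentage of all counts (vertical axis) in each of the 6 libraries (horizontal axis), with the bar divided by role. The bar for untreated A549 cells reaches 3.38% and those for treated A549 cells 1.58% and 1.31%, while the BEAS-2B bars lie between 0.466% and 0.560%.

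Between the untreated lines, 39 of the 44 genes reached the minimum in at least 1 of the libraries. Of these, 32 were higher in A549 cells, where 18.1% of the 7329 entries that reached the minimum were higher, and 2 were lower, beside 18.9% of all. The 2 lower genes were GSTM3 and CBR3, which passed the minimum through BEAS-2B cells alone and so could only be lower in A549 cells. Over the 35 expressed genes (mean ND of at least 5 over the 6 libraries) the median log2 FC was 2.71, and over all 9848 expressed entries it was -0.05. A gene that passed the minimum through A549 cells alone had to be higher there, so that the count over the genes that passed is no support by itself. In BEAS-2B cells 13 of the 44 had at most 7 raw counts in every library.

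With 5 ng/mL TGF-β1, 37 of the 44 genes reached the minimum in A549 cells. Of these, 23 fell and 2 rose, beside 17.1% of all entries that fell and 16.1% that rose. At 1 ng/mL, 20 fell and 1 rose of 37, beside 12.6% and 10.9%. The median log2 FC was -1.24 at 5 ng/mL and -0.93 at 1 ng/mL, while that of all expressed entries was 0.07 and 0.08. Both doses are read against the same untreated library. In BEAS-2B cells 25 of the 44 reached the minimum. At 5 ng/mL, 5 of them fell and 1 rose, beside 11.6% and 7.33% of all entries, and at 1 ng/mL 6 fell and 1 rose, beside 9.13% and 5.66%. The median was -0.33 at 5 ng/mL and close to 0 at 1 ng/mL. The untreated A549 library enters the comparison of the lines and that with TGF-β1, so a high value there raises the first and lowers the second. In A549 cells 37 of the 44 reached the minimum untreated and 31 at 5 ng/mL, and in BEAS-2B cells 24 and 20. A gene that passed through the control alone could only be lower, as for GPX2 and AKR1B10 in A549 cells and NQO1 and GSR in BEAS-2B cells. The counts of falls are thus no support by themselves.

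These counts depended on the scale in part. With counts scaled to the library totals alone, the median of all expressed entries at 5 ng/mL shifted by -0.20 in A549 cells and by -0.13 in BEAS-2B cells, 29 of the genes fell and 1 rose in A549 cells, and the part of all calls in A549 cells that were rises went from 48.4% to 33.8%. NFE2L2, CBR1, FTL, GCLM, ME1 and UGDH in A549 cells, and SRXN1 and FTH1 in BEAS-2B cells, were lower at 5 ng/mL but under the limit, and passed it on that scale. With log2(CPM + 1) as the ND value, 20 fell and 2 rose in A549 cells at 5 ng/mL, and in BEAS-2B cells 0 of the genes reached the criteria in either direction at either dose.

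**Figure D2:**
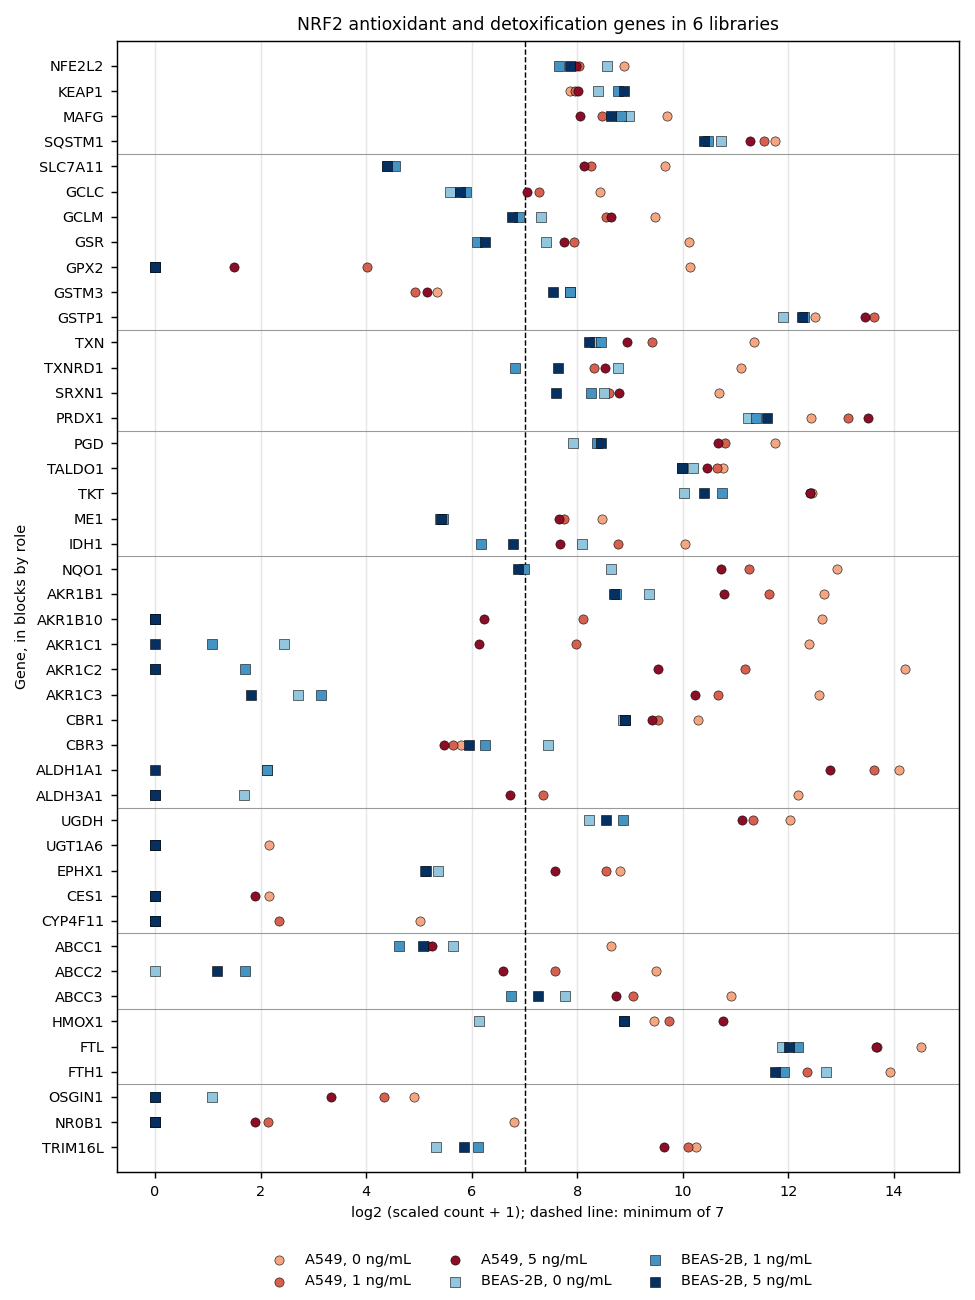
Level of each of the 44 genes (rows, in blocks by role) as log2 of the scaled count plus 1 (horizontal axis), with circles for the 3 A549 libraries and squares for the 3 BEAS-2B libraries. The dashed line marks the minimum of 7; AKR1B10, AKR1C2 and GPX2 lie at 0 in untreated BEAS-2B cells, while all points of NFE2L2 and KEAP1 lie above the minimum.

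Of the 4 regulators, MAFG fell in A549 cells and the others did not pass the limit with TGF-β1, which for NFE2L2 depended on the scale. At 0, 1 and 5 ng/mL, the order kept below, NFE2L2 had scaled counts of 472, 261 and 249 in A549 cells and 378, 200.3 and 232 in BEAS-2B cells. Its level in untreated A549 cells was 1.25-fold (95% interval 1.08 to 1.44) that in BEAS-2B cells, under the limit. At 5 ng/mL it was 1.89-fold (1.62 to 2.21) lower in A549 cells and 1.63-fold (1.36 to 1.96) lower in BEAS-2B cells, under the 2-fold limit in both. With total counts NFE2L2 passed the limit in A549 cells at both doses, with a log2 FC of -1.02 at 1 ng/mL and -1.12 at 5 ng/mL. On the same scale it passed the limit in BEAS-2B cells at 1 ng/mL (-1.04) but not at 5 ng/mL (-0.83). KEAP1 stood at 232, 247 and 257 in A549 cells and 337, 435 and 469.8 in BEAS-2B cells and passed the limit in no comparison. MAFG, which encodes a small MAF partner of NRF2 and is itself a target, was at 826, 355 and 265 in A549 cells and 506, 451 and 397 in BEAS-2B cells. It fell 3.12-fold (2.72 to 3.59) at 5 ng/mL and 2.33-fold (2.07 to 2.61) at 1 ng/mL in A549 cells. In BEAS-2B cells its ratio stayed within 2-fold, with the treated libraries 1.12-fold (0.979 to 1.29) and 1.28-fold (1.1 to 1.48) lower. SQSTM1, which encodes p62, an autophagy adaptor that binds KEAP1, was at 3414, 2982 and 2486 in A549 and 1691, 1420 and 1345 in BEAS-2B cells. It was 2.02-fold (1.9 to 2.15) higher in untreated A549 cells, a call that 2 other scalings took just under 2-fold.

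The genes of glutathione supply in the list, SLC7A11, GCLC and GCLM, were higher in A549 cells. GSS, a glutathione synthesis gene outside the 44, was at 168, 179 and 227 in A549 and 207, 171 and 198 in BEAS-2B cells. SLC7A11 imports the cystine from which glutathione is built. It had 811, 306 and 279 in A549 cells and 20.1, 22.5 and 20.2 in BEAS-2B cells, and all 3 A549 libraries lay above all BEAS-2B libraries. The difference between the untreated lines was 40.4-fold (25.4 to 68.6). In A549 cells SLC7A11 fell 2.65-fold (2.35 to 2.99) at 1 ng/mL and 2.9-fold (2.53 to 3.33) at 5 ng/mL, so that most of its decrease was present at the lower dose. GCLC and GCLM encode the catalytic and the modifier subunit of glutamate-cysteine ligase, which makes the first bond of glutathione. GCLC was at 342, 154 and 132 in A549 cells and 46.8, 58.5 and 54.2 in BEAS-2B cells. It was 7.3-fold (5.27 to 10.3) higher in untreated A549 cells and fell 2.6-fold (2.12 to 3.19) there at 5 ng/mL. GCLM, with 708, 372 and 400.1 in A549 and 157, 118 and 108 in BEAS-2B cells, was 4.5-fold (3.74 to 5.44) higher in untreated A549 cells. With 5 ng/mL it was 1.77-fold (1.56 to 2.0) lower in A549 cells, under the limit, so that the catalytic subunit passed it and the modifier did not. That split was not kept with total counts, where GCLM also passed at both doses.

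Glutathione reductase, GSR, returns oxidized glutathione to its reduced form. Its scaled counts were 1111, 245 and 215 in A549 cells and 168, 67.5 and 75.6 in BEAS-2B cells, so that it fell in both lines. The fall at 5 ng/mL was 5.17-fold (4.48 to 5.98) in A549 cells and 2.23-fold (1.64 to 3.06) in BEAS-2B cells. At 1 ng/mL it was 4.53-fold (4.01 to 5.13) and 2.49-fold (1.84 to 3.42). GPX2, a glutathione peroxidase of epithelia, showed the steepest fall of the list. Its raw counts were 973, 22 and 2 in A549 cells and 0, 0 and 0 in BEAS-2B cells. The ratio of untreated A549 to BEAS-2B cells was at least 337-fold, taking the 3 counts per library that a count of 0 allows. In A549 cells GPX2 fell 74.6-fold (49 to 119.6) at 1 ng/mL and 621-fold (172 to 5137) at 5 ng/mL, where 2 counts remained. Among the 7115 entries that reached the minimum at 5 ng/mL, its change ranked 3 from the bottom.

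The glutathione transferases in the list, GSTM3 and GSTP1, which attach glutathione to electrophiles, did not share this pattern. MGST1, a transferase outside the list, fell in both lines and is given further on. GSTM3 was at 39.4, 29.5 and 34.5 in A549 cells and 232, 232 and 184 in BEAS-2B cells. It was 5.89-fold (4.08 to 8.73) lower in untreated A549 cells, and all A549 libraries lay below all BEAS-2B libraries. GSTP1, the pi class enzyme, was at 5791, 12549.6 and 11203 in A549 cells and 3819, 5046 and 4921 in BEAS-2B cells. The treated A549 libraries were the highest of the 6. GSTP1 rose 2.17-fold (2.1 to 2.24) at 1 ng/mL, a call lost with total counts, and was 1.93-fold (1.87 to 2.0) higher at 5 ng/mL, just under the limit. Its promoter core is the one that ME1 holds too, beside a further core, TGACGGTGC. ME1 stood lower in the treated A549 libraries, and the part of these letters in either change was not tested.

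In the thioredoxin system 3 of the 4 genes fell in A549 cells at 5 ng/mL and 1 rose. Of all entries, 17.1% fell and 16.1% rose. TXN encodes thioredoxin, a small protein that reduces disulfides. It was at 2599, 685 and 489.9 in A549 cells and 323, 348 and 297 in BEAS-2B cells. The lines differed by 8.03-fold (7.11 to 9.11) untreated and by 1.65-fold (1.41 to 1.93) at 5 ng/mL, after a fall of 5.3-fold (4.83 to 5.84) in A549 cells. In BEAS-2B cells TXN was 1.09-fold (0.913 to 1.3) lower at 5 ng/mL, an interval that includes 1. TXNRD1, the reductase that recharges thioredoxin with NADPH, was at 2185, 319 and 367 in A549 and 438, 111 and 196 in BEAS-2B cells. It fell in both lines and at both doses: by 6.85-fold (6.19 to 7.6) and 5.95-fold (5.34 to 6.64) in A549 cells and by 3.93-fold (3.15 to 4.96) and 2.23-fold (1.85 to 2.7) in BEAS-2B cells at 1 and 5 ng/mL. In each line the lower dose had the lower level, and the treated A549 libraries differed by 1.15-fold (1.01 to 1.32).

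Sulfiredoxin, SRXN1, restores peroxiredoxins that peroxide has inactivated. Its scaled counts were 1645, 388 and 440 in A549 cells and 364, 305 and 191 in BEAS-2B cells. It fell 3.74-fold (3.37 to 4.15) in A549 cells and was 1.9-fold (1.56 to 2.32) lower in BEAS-2B cells at 5 ng/mL, where the limit was not reached. The peroxiredoxin PRDX1, which sulfiredoxin and thioredoxin both serve, moved the opposite way. It was at 5474, 8919 and 11618 in A549 cells and 2396, 2670.2 and 3095 in BEAS-2B cells. At 5 ng/mL it rose 2.12-fold (2.05 to 2.19) in A549 cells, a call lost with total counts (log2 FC of 0.88), and was 1.29-fold (1.22 to 1.37) higher in BEAS-2B cells. The difference between the lines was 2.28-fold (2.17 to 2.41) untreated and 3.75-fold (3.6 to 3.92) at 5 ng/mL.

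NADPH is the electron source of both systems. PGD, an enzyme of the oxidative pentose phosphate pathway, was at 3449, 1774 and 1622 in A549 cells and 241, 329.7 and 346 in BEAS-2B cells. It was 14.3-fold (12.5 to 16.5) higher in untreated A549 cells and fell 2.13-fold (2.0 to 2.26) there at 5 ng/mL. TKT and TALDO1 encode transketolase and transaldolase of the non-oxidative branch. TKT was 5.42-fold (5.05 to 5.82) higher in untreated A549 cells and nearly level across doses there, at 5602, 5428 and 5432. In BEAS-2B cells TKT was at 1034, 1710.3 and 1348, with the highest level at 1 ng/mL. TALDO1, at 1723, 1609.8 and 1404 in A549 and 1173, 1007 and 1013 in BEAS-2B cells, passed the limit in no comparison. ME1, the cytosolic malic enzyme, was at 351, 214 and 201 in A549 cells and 41.3, 42.8 and 41.6 in BEAS-2B cells. It was 8.51-fold (6.03 to 12.3) higher in untreated A549 cells and 1.74-fold (1.46 to 2.08) lower at 5 ng/mL than in the A549 control, under the limit.

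Cytosolic isocitrate dehydrogenase, IDH1, was the gene of this group that fell in both lines. Its scaled counts were 1054, 436 and 204 in A549 cells and 269.9, 70.9 and 109.6 in BEAS-2B cells. In A549 cells it fell 2.42-fold (2.18 to 2.68) at 1 ng/mL and 5.16-fold (4.46 to 6.0) at 5 ng/mL, with a further fall of 2.13-fold (1.83 to 2.5) from the lower to the higher dose. In BEAS-2B cells it fell 3.81-fold (2.88 to 5.11) and 2.46-fold (1.92 to 3.18), with the lower level at 1 ng/mL. The pentose phosphate enzymes and IDH1 thus differed in how they moved, and the lines differed in dose order.

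The enzymes that act on quinones, carbonyls and aldehydes held the largest differences. NQO1, the quinone reductase that is the most used readout of NRF2, was at 7790.4, 2449 and 1687 in A549 cells and 399, 126 and 117 in BEAS-2B cells. The untreated lines differed by 19.5-fold (17.5 to 21.8). With 5 ng/mL NQO1 fell 4.62-fold (4.39 to 4.87) in A549 cells and 3.41-fold (2.71 to 4.33) in BEAS-2B cells, so that the lines still differed by 14.4-fold (11.7 to 17.9). AKR1B1, aldose reductase, was at 6538, 3184 and 1765 in A549 and 651, 426 and 413 in BEAS-2B cells. It was 10-fold (9.22 to 10.9) higher in untreated A549 cells and fell there by 2.05-fold (1.97 to 2.14) at 1 ng/mL and 3.71-fold (3.52 to 3.9) at 5 ng/mL.

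Its relative AKR1B10 and the AKR1C enzymes, which reduce lipid aldehydes, steroids and xenobiotic ketones, were nearly confined to A549 cells in raw counts. AKR1B10 had 5482, 398 and 82 counts in A549 cells and 0, 0 and 0 in BEAS-2B cells. For AKR1C1 they were 4658, 363 and 77 in A549 and 4, 1 and 0 in BEAS-2B cells. In each of these genes all A549 libraries lay above all BEAS-2B libraries. AKR1C2 had 16442, 3349 and 808 counts in A549 and 0, 2 and 0 in BEAS-2B cells. The counts of AKR1C3 were 5302, 2350 and 1317 in A549 and 5, 7 and 2 in BEAS-2B cells. In untreated A549 cells AKR1C2 was at least 5693-fold and AKR1B10 at least 1898-fold above BEAS-2B cells, taking 3 counts where 0 were seen. They were the entries with the largest and the next largest FC of the 7329. The ratio was 1210 (472 to 4441) for AKR1C1 and 1101 (472 to 3394) for AKR1C3, whose wide intervals come from 4 and 5 counts in BEAS-2B cells. The 3 AKR1C genes together took 0.637% of all counts in untreated A549 cells, 0.0773% at 1 ng/mL and 0.0361% at 5 ng/mL.

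With TGF-β1 these genes fell in A549 cells by different factors. AKR1B10 fell 23.2-fold (21 to 25.8) at 1 ng/mL and 85.4-fold (68.7 to 108) at 5 ng/mL. AKR1C1 fell 21.6-fold (19.4 to 24.1) and 77.3-fold (61.7 to 98.1), a course close to that of AKR1B10, with overlapping intervals at both doses. AKR1C2 fell less, by 8.28-fold (7.98 to 8.6) and 26-fold (24.2 to 27.9). AKR1C3 fell least, by 3.8-fold (3.62 to 4.0) and 5.14-fold (4.84 to 5.46). The intervals of AKR1C1, AKR1C2 and AKR1C3 at 5 ng/mL do not overlap. Between 1 and 5 ng/mL, AKR1B10, AKR1C1 and AKR1C2 fell again, by 3.68-fold (2.89 to 4.72), 3.57-fold (2.78 to 4.63) and 3.14-fold (2.91 to 3.39), as did IDH1. These are 4 of the 35 genes that reached the minimum in that comparison, beside 1.79% of all entries, and 1 gene rose, HMOX1, beside 1.61%. The last 300 bases of the annotated transcripts were 49.3% identical between AKR1C1 and AKR1C2, 50.1% between AKR1C1 and AKR1C3, and 50.3% between AKR1C2 and AKR1C3. AKR1B10 and its close copy AKR1B15 were 87.0% identical there, and AKR1B15 had 34, 1 and 4 raw counts in A549 cells, so that a small part of either count may belong to the other. Only 1 annotated transcript per gene was compared, and ends annotated at different places would also lower the identity. Whether the AKR1C genes share reads therefore cannot be judged from these values. AKR1C4, a further gene of this family, had 110, 8 and 3 raw counts in A549 cells.

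The aldehyde dehydrogenases differed from each other in their change. ALDH1A1, which oxidizes retinal and lipid aldehydes, had 15076, 18278 and 7791 raw counts in A549 cells and 3, 3 and 0 in BEAS-2B cells. Its scaled counts in A549 cells were 17467, 12558 and 7069, so that it fell 2.47-fold (2.4 to 2.54) at 5 ng/mL and was 1.39-fold (1.36 to 1.42) lower at 1 ng/mL. With 5 ng/mL it was at least 1871-fold above BEAS-2B cells, the largest FC of the 6837 entries that reached the minimum. ALDH3A1, which protects epithelia against aldehydes, had 4022, 236 and 116 raw counts in A549 cells and 2, 0 and 0 in BEAS-2B cells. It fell 28.7-fold (25.2 to 32.9) at 1 ng/mL and 44.3-fold (36.8 to 53.7) at 5 ng/mL.

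The carbonyl reductases CBR1 and CBR3 also parted. CBR1 was at 1249, 741 and 684 in A549 cells and 466, 479 and 481 in BEAS-2B cells, 2.68-fold (2.39 to 3.01) higher in untreated A549 cells and 1.83-fold (1.66 to 2.01) lower there at 5 ng/mL, under the limit. CBR3 was at 54.5, 48.8 and 43.5 in A549 and 174, 75.4 and 60.5 in BEAS-2B cells. It was 3.2-fold (2.29 to 4.53) lower in untreated A549 cells than in BEAS-2B cells. In BEAS-2B cells CBR3 fell 2.31-fold (1.72 to 3.12) at 1 ng/mL and 2.88-fold (2.07 to 4.07) at 5 ng/mL, and in A549 cells it stayed under the minimum in all 3 libraries.

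**Figure D3:**
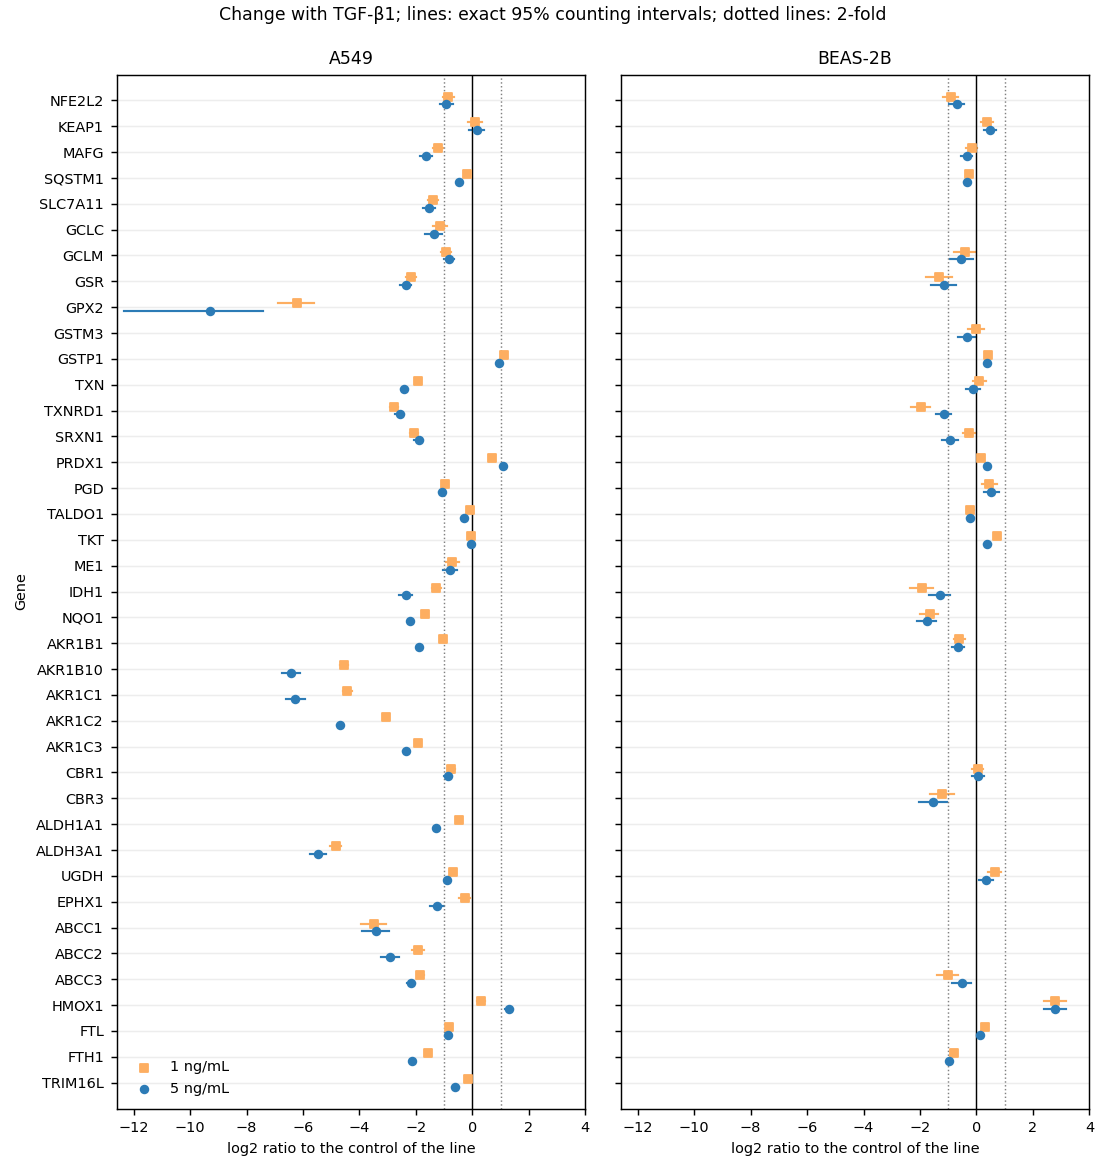
Ratio of each treated library to the control of its line on a log2 scale (horizontal axis) for the 39 genes that reached the minimum in at least 1 library (rows), with A549 left and BEAS-2B right; squares are 1 ng/mL, circles 5 ng/mL, horizontal lines exact 95% counting intervals, and a gene is left blank where neither library of the comparison reached the minimum. In A549 cells 23 of 37 genes fell at 5 ng/mL, GPX2 the most, and in BEAS-2B cells HMOX1 lies far to the right at both doses.

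Among the genes for conjugation and oxidation of foreign compounds, UGDH makes the glucuronic acid donor. It was at 4167, 2576 and 2234 in A549 cells and 297, 464 and 373 in BEAS-2B cells, and it was 14-fold (12.4 to 16) higher in untreated A549 cells. Treated A549 cells had 1.87-fold (1.77 to 1.96) less at 5 ng/mL and treated BEAS-2B cells 1.26-fold (1.06 to 1.49) more, both under the limit. EPHX1, the microsomal epoxide hydrolase, was at 448, 370.3 and 189.6 in A549 and 40.2, 33.8 and 34 in BEAS-2B cells. It fell 2.36-fold (1.99 to 2.81) at 5 ng/mL in A549 cells and was 1.21-fold (1.06 to 1.38) lower at 1 ng/mL. UGT1A6, CES1 and CYP4F11 had at most 27 raw counts in any library. UGT1A6 shares its end with the other UGT1A transcripts, 99.3% identical to UGT1A3 over 300 bases, and the 1514, 210 and 151 raw counts listed under UGT1A3 in A549 cells cannot be told apart from it.

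The efflux transporters, ATP-driven pumps that export glutathione and glucuronide conjugates, fell in A549 cells without exception among the 3 listed. Of all entries, 12.6% fell at 1 ng/mL and 17.1% at 5 ng/mL. At 5 ng/mL ABCC1 and ABCC2 passed the minimum through the control alone and could only be lower. ABCC1 was at 396, 35 and 37.2 in A549 cells and 49.1, 23.6 and 32.7 in BEAS-2B cells. It fell 11.3-fold (8.41 to 15.5) at 1 ng/mL and 10.7-fold (7.69 to 15.1) at 5 ng/mL, and both treated A549 libraries then lay in the range of the BEAS-2B libraries. ABCC2 had 619, 275 and 105 raw counts in A549 cells and 0, 2 and 1 in BEAS-2B cells. It fell 3.8-fold (3.29 to 4.39) and 7.53-fold (6.11 to 9.35). ABCC3 was at 1915, 532 and 422 in A549 and 218, 107 and 151 in BEAS-2B cells. In A549 cells it fell 3.6-fold (3.3 to 3.92) and 4.54-fold (4.09 to 5.04). In BEAS-2B cells ABCC3 fell 2.03-fold (1.58 to 2.63) at 1 ng/mL, a call lost under 4 other scalings, and was 1.44-fold (1.14 to 1.82) lower at 5 ng/mL.

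HMOX1 rose in both lines. It encodes heme oxygenase-1, which breaks heme down to biliverdin, iron and carbon monoxide. Its scaled counts were 697, 857 and 1723 in A549 cells and 69.2, 475 and 472 in BEAS-2B cells. It rose in BEAS-2B cells by 6.87-fold (5.25 to 9.12) at 1 ng/mL and 6.83-fold (5.21 to 9.09) at 5 ng/mL, and the treated libraries did not differ beyond their counting error. Its FC at 5 ng/mL ranked 60 from the top among the 6735 entries that reached the minimum. In A549 cells it was 1.23-fold (1.11 to 1.36) higher at 1 ng/mL, under the limit, and rose 2.47-fold (2.25 to 2.71) at 5 ng/mL. The rise in BEAS-2B cells did not reach the minimum level when the ND value was taken as log2(CPM + 1), while the fold was the same.

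Ferritin, the iron store that receives the iron from heme, moved differently in its chains. FTL, the light chain, was at 23386, 13089 and 12953 in A549 cells and 3776, 4628 and 4115 in BEAS-2B cells. It was 6.19-fold (5.97 to 6.43) higher in untreated A549 cells and 1.81-fold (1.77 to 1.84) lower there at 5 ng/mL, under the limit. FTH1, the heavy chain that oxidizes iron, was at 15608, 5246 and 3520.2 in A549 and 6722, 3846 and 3425 in BEAS-2B cells. It fell 2.97-fold (2.89 to 3.06) at 1 ng/mL and 4.43-fold (4.28 to 4.6) at 5 ng/mL in A549 cells and was 1.96-fold (1.88 to 2.05) lower at 5 ng/mL in BEAS-2B cells. FTH1 differed by 2.32-fold (2.25 to 2.39) between the untreated lines and by 1.03-fold (0.978 to 1.08) at 5 ng/mL, an interval that includes 1. Reads can be shared with ferritin pseudogenes, of which FTH1P3 held at most 105 raw counts.

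TRIM16L, a partial copy of the ubiquitin ligase gene TRIM16, was at 1217, 1096 and 797 in A549 cells and 39, 68.6 and 56.7 in BEAS-2B cells. It was 31.2-fold (22.3 to 45) higher in untreated A549 cells and 1.53-fold (1.39 to 1.67) lower there at 5 ng/mL, under the limit. Its last 300 bases were 91.6% identical to those of TRIM16, so that the counts of the pair are uncertain. NR0B1, an orphan nuclear receptor induced with NRF2 in lung cancer, stayed just under the minimum, with 95, 5 and 3 raw counts in A549 cells and 0, 0 and 0 in BEAS-2B cells. Its ratio in A549 cells was 40.4-fold (13.4 to 199.6) lower at 5 ng/mL. OSGIN1, an oxidative stress-induced growth inhibitor, had at most 28 raw counts in any library.

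The lines were also compared at each dose, where the libraries are separate at 0, 1 and 5 ng/mL. At 1 ng/mL 36 of the 44 genes reached the minimum, 26 were higher in A549 cells, beside 15.3% of all entries, and 1 was lower, GSTM3, beside 12.9%. At 5 ng/mL 32 reached it, 21 were higher, beside 14.8%, and again GSTM3 alone was lower, beside 12.1%. GSTM3 passed the minimum through BEAS-2B cells alone at both doses, and others, such as AKR1C2, through A549 cells alone. The median log2 FC over the 35 expressed genes was 2.71, 1.65 and 1.5 at 0, 1 and 5 ng/mL. With 5 ng/mL TGF-β1, A549 cells still held 13.9-fold (8.4 to 24.6) the SLC7A11, 14.1-fold (10.4 to 19.4) the TRIM16L and 5.99-fold (5.31 to 6.78) the UGDH of BEAS-2B cells. The differences in TXNRD1 and IDH1 were then 1.87-fold (1.55 to 2.26) and 1.86-fold (1.45 to 2.41), under the limit, from 4.98-fold (4.47 to 5.57) and 3.91-fold (3.39 to 4.52) in untreated cells. PRDX1 and GSTP1 were instead farther apart at 5 ng/mL than untreated, GSTP1 by 2.28-fold (2.2 to 2.36) against 1.52-fold (1.45 to 1.58). HMOX1 was 10.1-fold (7.76 to 13.3) higher in untreated A549 cells, 1.81-fold (1.62 to 2.02) at 1 ng/mL and 3.65-fold (3.26 to 4.09) at 5 ng/mL, so that the lines lay closest at the lower dose.

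**Figure D4:**
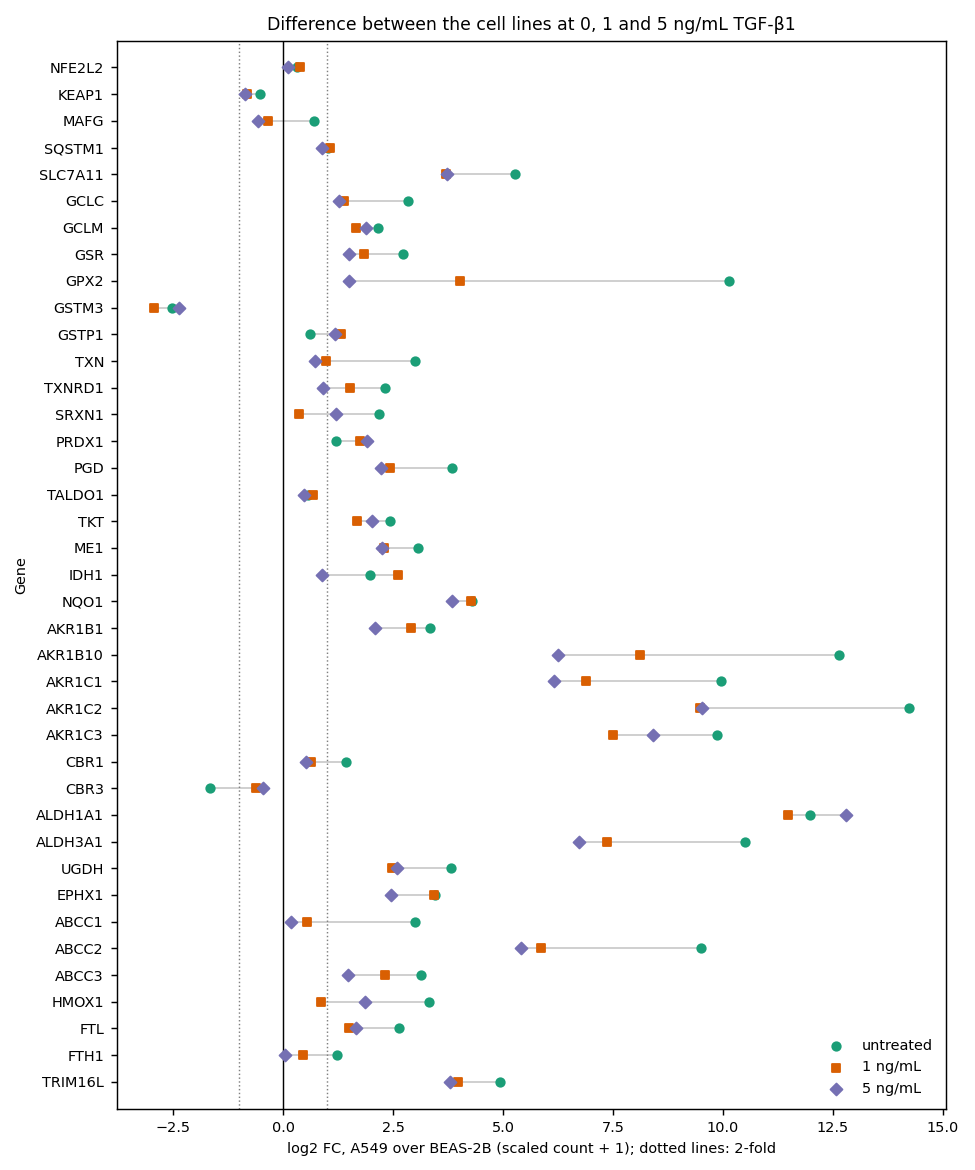
Log2 FC of A549 over BEAS-2B cells on the scaled count plus 1 (horizontal axis) for the 39 genes that reached the minimum in at least 1 library (rows), untreated (circles), at 1 ng/mL (squares) and at 5 ng/mL (diamonds); dotted lines mark 2-fold. Most circles lie to the right of the other symbols; GSTP1, PRDX1 and ALDH1A1 are among those whose diamonds lie to the right of the circles, and for genes at 0 counts in BEAS-2B cells the position depends on the added 1.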

How the data were processed

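The values deposited by the authors are read counts per gene symbol, whole numbers without normalization, for 25737 entries in each of 6 libraries. A QuantSeq kit, which primes at the 3′ end of mRNA, was used for the libraries. The submitters' processing notes name Bowtie2, bedtools and hg19, and the paper names ExDEGA; versions and filters are not given in the sources used here.

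Counts were scaled with TMM factors (edgeR 4.0.16, R 4.3.3) computed over all entries and 6 libraries, times the mean effective size, and 1 was added before log2. An ND value of 7 equals a scaled count of 127. Ratios carry exact 95% Clopper-Pearson intervals, and a count of 0 was taken to allow 3 counts. Total counts of 4120624 to 7841350 put those 3 counts between 0.383 and 0.728 CPM. Reads carry no molecular identifiers, so intervals cover counting error only.

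The genes, lists and limits were chosen with earlier results of these data known. Values in every library were printed for genes whose ND value reached 7 in any library and whose FC reached 2 in any comparison, 36 of the 44; NFE2L2, KEAP1, TALDO1 and other genes outside this rule were added for their role or after their values were seen. Some genes of the comparison lists are not reported here by name. Promoters came from RefSeq on GRCh38, a build other than the hg19 of the counts, and transcript ends from GENCODE v29. Alternatives were DESeq2 1.42.0 size factors, total counts, upper quartile factors, TMM within each pair, a filter on low counts, other pseudocounts, ND and FC limits, summed entries and, chosen after seeing the data, log2(CPM + 1) as the ND value, medians over all 44 genes and 0 counts set to 3. Other steps ran in Python 3.11.15 (scipy 1.17.1, pandas 2.3.3, numpy 2.4.6, Biopython 1.88, matplotlib 3.10.9). The calls and intervals were tested on simulated data that held counting error alone and large changes in well-counted genes. That test does not cover the spread between cultures, changes near the limit or genes with few counts.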

Additional observations from a re-analysis of the deposited data

Results flagged for a closer look

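Of the 44 genes, 3 had log2 FCs of opposite sign with TGF-β1 in the cell lines, in both treated libraries of each line and with counting intervals that exclude no change at 5 ng/mL; the difference between the lines was not tested, since each condition has 1 library. At 5 ng/mL the log2 FC of PGD was -1.09 in A549 and 0.52 in BEAS-2B cells. That of UGDH was -0.90 and 0.33. That of FTL was -0.85 and 0.12. With total counts the value of FTL in BEAS-2B cells was -0.0057, so that its direction there depends on the scaling.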

How the results depend on the processing

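No paired analysis was possible because the labels carry no replicate numbers, and leaving out a replicate was not run since each condition has 1 library. A fit across lines and doses that takes their effects as additive was not run. Of 252 alternative values of the counts and medians, 223 stayed within the limits and 29 did not. The limit was 1.5-fold for a count, and for a median the median ends of the genes' counting intervals. A turn of sign could be recorded only for medians of at least 1 in absolute value, where 0 were found. Counts and the medians in A549 cells at 1 ng/mL and in BEAS-2B cells at both doses were not covered by that check. Single genes gave 1848 alternative values, of which 1763 lay inside the counting interval of the reported value and 0 turned the direction of a called gene. With total counts, A549 cells had 1 rise at 5 ng/mL and 0 at 1 ng/mL, with a median log2 FC of -1.44 at 5 ng/mL. With an ND minimum of 8, 0 genes were lower in A549 than in BEAS-2B cells at 0, 1 or 5 ng/mL, and 3 fell in BEAS-2B cells at either dose. With an FC limit of 1.5, 2 genes were lower in A549 than in BEAS-2B cells at 1 and at 5 ng/mL, 2 rose in A549 cells at 1 ng/mL, and of the BEAS-2B libraries the lower dose had 3 rises and the higher 9 falls. With a limit of 3, 0 rose in A549 cells at either dose, and in BEAS-2B cells 1 fell with 5 and 3 with 1 ng/mL. With log2(CPM + 1) as the ND value, chosen after seeing the data, 0 genes were lower in A549 cells at any dose, 13 were higher at 1 and at 5 ng/mL, and 0 rose or fell in BEAS-2B cells. Over all 44 genes, also chosen after seeing the data, the median was 3.0 between the untreated lines, -1.55 in A549 cells at 5 ng/mL and -1.18 at 1 ng/mL. These moves follow from the limits and scales themselves. The number of libraries, 1 per condition, limits every value, and genes with few BEAS-2B counts have wide intervals.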

Other observations

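Other genes of the NRF2 pathway that were not among the 44 gave the following values, and those named here were chosen after their values were seen. Of 23 such genes, 19 reached the minimum between the untreated lines, with 12 higher and 3 lower in A549 cells (median log2 FC of 1.29 over 20 expressed genes, beside -0.05 over all expressed entries; 18.1% of all entries were higher and 18.9% lower), and 17 reached it in A549 cells at 5 ng/mL, where 7 fell and 1 rose (median -0.75, beside 0.07; 17.1% of all entries fell and 16.1% rose). In BEAS-2B cells at 5 ng/mL, 2 fell and 1 rose of 14, near the 11.6% and 7.33% of all entries. MAFK, another small MAF partner of NRF2, was the gene that rose in A549 cells. Its scaled counts were 1396, 3046 and 3826 in A549 cells and 519, 518 and 835 in BEAS-2B cells, while MAFG fell in A549 cells. MGST1, a membrane-bound glutathione transferase, was at 4506, 1007 and 448 in A549 and 437, 29.3 and 51.6 in BEAS-2B cells, with falls of 10.1-fold (9.15 to 11.1) and 8.47-fold (6.13 to 12) at 5 ng/mL. PIR, an iron-binding nuclear protein, was at 418, 145 and 105 in A549 cells and 8.92, 13.5 and 8.82 in BEAS-2B cells.

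Of 15 further enzymes that remove peroxide and superoxide, 12 reached the minimum between the untreated lines, with 3 higher and 2 lower in A549 cells (median 0.28 over 12 expressed genes), and 11 reached it in A549 cells at 5 ng/mL, where 3 fell and 0 rose. Of all entries, 18.1% were higher and 18.9% lower between the untreated lines, and 17.1% fell and 16.1% rose in A549 cells at 5 ng/mL. In BEAS-2B cells at 5 ng/mL, 2 of 11 fell and 0 rose, beside 11.6% and 7.33% of all entries. The genes named next were chosen after their values were seen. A further 8 reached the minimum in A549 cells at 5 ng/mL and did not pass the limit. PRDX3, the mitochondrial peroxiredoxin, was at 719, 128 and 71.7 in A549 cells and 223, 84.4 and 44.1 in BEAS-2B cells and fell 10-fold (7.93 to 12.9) and 5.06-fold (3.52 to 7.47) at 5 ng/mL. SOD2, the mitochondrial superoxide dismutase, was at 709, 335 and 225 in A549 and 1308, 433 and 239 in BEAS-2B cells and fell 3.15-fold (2.71 to 3.67) and 5.47-fold (4.69 to 6.41). Catalase, CAT, was at 475, 124 and 78.9 in A549 and 82.5, 34.9 and 42.8 in BEAS-2B cells, a fall in A549 cells at both doses. PRDX2 had 0, 1 and 0 raw counts in A549 cells and 138, 161 and 111 in BEAS-2B cells.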
